A study of Mus musculus with 8 samples.

Results

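Cic was followed probe set by probe set. The members were all probe sets whose platform gene symbol is Cic alone, 21 of 241576 in the table, with ids from 10551081 to 10551101. Every probe set of the table inside that id range is one of them. The tissue was the entire cerebellum of 28-day-old mice, taken from 4 that were wild-type and 4 whose genotype label is Cic-L-null, with 1 Affymetrix Mouse Gene 1.0 ST array per animal. Both groups have a strain label of mixed Swiss Webster (CD-1) background. The labels do not say how the Cic-L-null allele was built. The extraction label of wild-type replicate 1 names Trizol with an RNeasy cleanup, and the labels of the other 7 arrays do not.

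Capicua, the protein encoded by Cic, is a repressor with an HMG box that binds DNA and recruits corepressors to genes that receptor tyrosine kinase signalling switches on. In the brain it forms a stable complex with ataxin-1, the protein mutated in spinocerebellar ataxia type 1, or with the related ataxin-1-like. The gene makes a long and a short protein from separate starts: the long form, Cic-L, has an additional N-terminal part, and most of the rest is shared with the short form, Cic-S. The genotype label names the long form, so the comparison asks how each stretch of the gene differed in these animals.

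RefSeq lists 2 start regions for Cic in GRCm38.p6, both on the plus strand of chromosome 7 and 14480 bases apart. They are shown because the forms of Cic differ by their start. The upstream window is chr7:25267449-25267748 and the downstream window is chr7:25281929-25282228, each of 300 bases around a start. Capitals mark CCAAT boxes on either strand (CCAAT or ATTGG).
Upstream Cic start: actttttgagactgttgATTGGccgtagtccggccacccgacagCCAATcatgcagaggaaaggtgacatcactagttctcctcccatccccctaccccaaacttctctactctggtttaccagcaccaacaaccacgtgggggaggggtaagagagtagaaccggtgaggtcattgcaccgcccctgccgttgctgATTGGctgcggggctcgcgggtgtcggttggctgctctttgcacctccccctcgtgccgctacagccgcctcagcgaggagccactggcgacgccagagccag
Downstream Cic start: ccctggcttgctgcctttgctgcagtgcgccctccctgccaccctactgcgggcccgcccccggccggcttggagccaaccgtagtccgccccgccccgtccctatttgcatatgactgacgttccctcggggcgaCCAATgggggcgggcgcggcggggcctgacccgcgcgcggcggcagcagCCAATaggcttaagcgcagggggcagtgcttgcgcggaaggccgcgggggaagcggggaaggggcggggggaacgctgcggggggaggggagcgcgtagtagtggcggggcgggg
The upstream window held 3 CCAAT matches and the downstream window 2, and 37.4% of 32851 RefSeq windows of the same length hold at least 1. The GC-box letters GGGCGG matched once upstream and 6 times downstream, against 35.7% of windows with a match. G and C made up 60.3% of the upstream and 74.3% of the downstream window, where the median window has 52.7%. The Capicua octamers TGAATGAA and TGAATGGA, searched on both strands, had 0 matches in either window. They occur in 1.3% and 1.21% of windows. No coordinates are given for the array's probe sets, so none could be placed relative to either start.

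The order of ids served as a stand-in for position. Among genes on the plus strand of chromosome 7, 693 of 698 pairs of genes that neighbour each other by id also ascended along the chromosome, as did 717 of 724 pairs on the minus strand. The ids just before those of Cic belong to Zfp526 and to probe sets shared by several genes, and the id just after belongs to Prr19, one of the 2 nearest measured genes after Cic in the reference gene order. Since Cic lies on the plus strand, ascending ids would run from the 5′ to the 3′ end. That order is shown between genes and was not tested within a gene.

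As a whole gene Cic fell, and the groups did not overlap. The mean log2 value of the 21 probe sets was 8.74, 8.57, 8.63 and 9.19 in wild-type replicates 1 to 4 and 7.50, 7.48, 7.62 and 7.54 in Cic-L-null replicates 1 to 4. Wild-type replicate 4 stood above the other 3, whereas the mutants lay within a narrow band. Mutants minus wild-type came to -1.25 (SE 0.12), with an adjusted p of 0.00818 over 20352 genes in limma, and 0.0491% of all genes were called lower in that fit. Without Cic-L-null replicate 2 the adjusted p was 0.0589. In RNA of a whole tissue, fewer cells that express a gene and less RNA per cell cannot be told apart.

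The mutant mean was the lower one for each of the 21 probe sets, where 48.4% of the array's probe sets had it so. For 17 of the 21 every mutant lay below every wild-type array, as for 1.91% of the array. A difference of -1 or lower was found in 13 of the 21, against 0.274% of the array. Among the 9374 genes with 9 or more probe sets, 158 (1.69%) had all of them lower. Tested one by one over 241576 probe sets with limma, 0 of the 21 passed an adjusted p of 0.05, and the fit called 1 probe set of the array lower in all (0.000414%). The adjusted p of the 21 ran from 0.129 to 0.943, and 19 of them had an unadjusted p under 0.05, against 3.04% of all probe sets for lower values. With a trended and robust variance, 8 of the 21 passed. The differences of single probe sets below are therefore given with their SE and as lower or higher means.

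The first 2 probe sets by id differed least. Probe set 10551081, the first, read 8.94, 8.99, 8.96 and 8.47 in the wild-type arrays and 8.80, 8.83, 8.58 and 8.80 in the Cic-L-null arrays. The groups overlapped, and the difference was -0.085 (SE 0.14), which leaves 94.3% of the wild-type signal on the linear scale. With any 1 array left out the difference stayed between -0.21 and -0.025.

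Probe set 10551082, the second, read 7.86, 7.94, 8.36 and 8.32 in wild-type and 7.20, 7.98, 7.85 and 7.83 in Cic-L-null. The groups overlapped through the highest mutant, replicate 2. The difference was -0.40 (SE 0.20), which leaves 75.6% of the signal. Left-out arrays moved it between -0.49 and -0.23.

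From the third probe set on, the mutant means were lower by more. Probe set 10551083 read 8.88, 8.89, 8.96 and 9.76 in wild-type and 7.77, 7.73, 7.54 and 7.97 in Cic-L-null. The lowest wild-type array stood 0.90 above the highest mutant, and the difference was -1.37 (SE 0.21), leaving 38.7%. Over the 19 probe sets from the third to the last, differences ran from -2.40 to -0.80, with a median of -1.37. With 1 array left out, the smallest difference among these 19 was -0.55. The boundary between the second and the third probe set was chosen after the values were seen, so it has no test.

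A pair of probe sets in this early stretch was dim. Probe set 10551084 read 6.88, 6.02, 5.55 and 5.95 in wild-type and 5.49, 4.66, 5.07 and 5.93 in Cic-L-null, a difference of -0.81 (SE 0.34). Probe set 10551087 read 7.04, 5.41, 5.995 and 7.32 in wild-type and 4.82, 5.76, 5.71 and 5.48 in Cic-L-null, a difference of -0.997 (SE 0.43). Both had overlapping groups, and their wild-type means of 6.10 and 6.44 lay beside the level of 6.31 that 95% of 1210 probe sets for olfactory receptors, genes of the nose, do not pass. All mutant arrays were under that level in both.

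Probe sets 10551085 and 10551086 lay between them. The former read 8.38, 8.31, 7.805 and 9.12 in wild-type and 7.14, 6.98, 6.96 and 6.93 in Cic-L-null, a difference of -1.40 (SE 0.24). The latter read 8.58, 8.76, 8.54 and 9.29 in wild-type and 6.63, 5.48, 6.54 and 6.94 in Cic-L-null. Its gap of 1.61 between the lowest wild-type and the highest mutant array was the widest of the 21, and its difference of -2.40 (SE 0.32) was the lowest, leaving 19.0% of the signal. One mutant array, replicate 2, lay below the olfactory receptor level there, and without it the difference was -2.09.

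The middle stretch of the gene was lower in all 4 mutants at each of its 7 probe sets. The brightest was 10551088, which read 9.90, 10.03, 10.17 and 10.31 in wild-type and 8.92, 9.18, 9.48 and 9.14 in Cic-L-null, a difference of -0.92 (SE 0.14). Probe set 10551089 read 8.80, 8.78, 8.67 and 9.22 against 8.11, 8.15, 8.03 and 7.99, with a difference of -0.80 (SE 0.13). Both kept more than 50% of the wild-type signal, at 52.8% and 57.6%.

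The next 3 were lower by more. Probe set 10551090 read 9.53, 9.47, 9.35 and 10.10 in wild-type and 8.21, 7.77, 8.13 and 7.89 in Cic-L-null, a difference of -1.61 (SE 0.18). Probe set 10551091 read 8.89, 9.09, 9.03 and 9.38 against 7.87, 7.36, 7.74 and 7.67, with a difference of -1.44 (SE 0.15) and the smallest unadjusted p of the 21. Probe set 10551092 read 9.09, 9.25, 9.25 and 9.95 against 6.94, 7.57, 7.87 and 7.35, with a difference of -1.96 (SE 0.24) that leaves 25.8%. In each of the 3 the groups were more than 1 log2 unit apart at their nearest arrays, by 1.14, 1.02 and 1.23.

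Probe sets 10551093 and 10551094 closed the middle stretch. The former read 9.63, 9.63, 9.71 and 9.91 in wild-type and 8.79, 8.91, 8.79 and 8.80 in Cic-L-null, the tightest mutant values of the gene, with a difference of -0.90 (SE 0.093). The latter read 8.92, 8.87, 8.97 and 9.81 against 7.75, 8.27, 8.16 and 8.04, with a difference of -1.09 (SE 0.22). Differences of neighbouring probe sets thus ranged widely here, from -1.96 to -0.80, with no steady course.

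The far end was lower in all mutants as well, at each of its 7 probe sets. Probe set 10551095 read 8.46, 8.41, 8.72 and 9.22 in wild-type and 7.31, 7.88, 7.82 and 8.15 in Cic-L-null, a difference of -0.91 (SE 0.23) and the narrowest gap among the probe sets that did not overlap, 0.26. Probe set 10551096 read 9.23, 8.90, 9.17 and 9.50 against 8.22, 8.06, 7.56 and 7.67, with a difference of -1.32 (SE 0.18). Probe set 10551097 read 8.62, 8.13, 8.24 and 9.06 against 7.14, 6.36, 7.35 and 6.50, with a difference of -1.68 (SE 0.28). In the last of these, mutant replicates 2 and 4 lay near the olfactory receptor level of 6.31 and replicates 1 and 3 above it.

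Of the last 4, probe set 10551098 was the brightest, at 9.94, 9.47, 9.97 and 10.34 in wild-type and 8.65, 8.24, 8.36 and 8.20 in Cic-L-null, a difference of -1.57 (SE 0.19). Probe set 10551099 read 8.55, 8.37, 8.55 and 9.24 against 6.92, 7.16, 7.30 and 6.82, with a difference of -1.63 (SE 0.20). Probe set 10551100 read 8.21, 7.88, 7.94 and 8.74 against 6.85, 6.71, 7.30 and 6.83, with a difference of -1.27 (SE 0.21). The last, 10551101, read 9.28, 9.28, 9.28 and 10.01 in wild-type and 7.98, 8.06, 7.90 and 7.33 in Cic-L-null, and its difference of -1.64 (SE 0.22) leaves 32.0%.

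Signal remained in the mutants. In 19 of the 21 probe sets the mutant mean lay above the olfactory receptor level, in 20 of 21 the wild-type mean did, and the median share of signal left was 40.0%. The probe sets that were bright in wild-type were also bright in the mutants (Pearson r = 0.86 over the 21 group means, a description only, since each probe set has its own brightness). The correlation of the difference with the wild-type mean was r = -0.26 over the same 21, again a description. The files do not say which of the remaining signal comes from which form of Cic, and RMA values compress folds near background.

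Whether a probe set departs from the rest of its gene was tested with diffSplice of limma, which sets its difference against the mean difference of the gene's other probe sets. Of the 21, 2 departed, against 0.326% of all 209838 probe sets tested, and 4 had an unadjusted p under 0.05, against 5.02%. The first, 10551081, was higher by 1.22 (SE 0.26, adjusted p = 0.00584), and the sixth, 10551086, was lower by 1.21 (-1.21, SE 0.26, adjusted p = 0.00652). Without wild-type replicate 4 the call of 10551081 stayed only just under the threshold (0.95, adjusted p = 0.0477). Without Cic-L-null replicate 2 the call of 10551086 was lost (-0.91, adjusted p = 0.202). The second, 10551082, was higher by 0.89 (adjusted p = 0.144) and was called when only probe sets whose mean over all arrays passed the olfactory receptor level were kept (0.93, adjusted p = 0.0451). Probe set 10551092 was lower (-0.74, adjusted p = 0.382). As a whole Cic ranked 27th of 18093 genes for unequal change among probe sets (F test, adjusted p = 0.000121), and 0.602% of genes passed.

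That test gives every probe set of a gene the same SE and treats them as independent within an array, which the high values of wild-type replicate 4 across Cic go against. Measured per array instead, 10551081 stood 0.20, 0.44, 0.35 and -0.76 from the mean of the other 20 in wild-type and 1.37, 1.42, 1.00 and 1.33 in Cic-L-null. The groups did not overlap, and wild-type replicate 4 was far below the rest. For 10551086 the same measure was -0.17, 0.21, -0.090 and 0.11 in wild-type and -0.91, -2.10, -1.14 and -0.63 in Cic-L-null, again with no overlap. Nor did the groups overlap on this measure for 10551089, 10551090, 10551092, 10551093 and 10551099. The share without overlap over all probe sets was not counted, so whether this is unusual cannot be told. With limma on these per-array values, an alternative chosen after seeing the data, 0 of the 21 passed over all 209838 probe sets, where the fit called 0 probe sets (0%) and 5.03% had an unadjusted p under 0.05. The adjusted p was 0.739 for 10551081 (unadjusted 0.00133) and 0.806 for 10551086 (unadjusted 0.00284). In the same limma fit the unadjusted p was 0.00128 for 10551089, the smallest of the 21, and 0.00276 for 10551082.

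Split by id into 3 equal blocks of 7 probe sets, each block of Cic fell. The mean of the first 7 read 8.08, 7.76, 7.74 and 8.32 in wild-type and 6.84, 6.77, 6.89 and 7.13 in Cic-L-null, which is -1.07 apart (SE 0.13, adjusted p = 0.0366 in limma over 28122 such blocks of all genes with 9 or more probe sets). The middle 7 changed from 9.42 ± 0.26 to 8.17 ± 0.10 (SD, n = 4), by -1.24 (SE 0.12, adjusted p = 0.0113), and the last 7 from 8.95 ± 0.35 to 7.52 ± 0.13 (SD, n = 4), by -1.43 (SE 0.15, adjusted p = 0.0168). Of all blocks of genes, 0.0213% were called lower.

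The ends of the gene were also set against each other in each array. The first 7 minus the last 7 gave -0.82, -0.87, -1.10 and -1.13 in wild-type and -0.74, -0.72, -0.76 and -0.23 in Cic-L-null, so 0.37 more in the mutants (SE 0.14, unadjusted p = 0.0228, adjusted p = 0.812 in limma over 9374 genes). No gene was called in that fit (0 of 9374, 0%), and 5.77% had an unadjusted p under 0.05. With the median of the 7 probe sets in place of their mean, the sign turned (-0.14, adjusted p = 0.993). The first 7 hold the 2 probe sets that differed least and also 10551086, which differed most. The call of the first 7 was lost when any 1 array was left out, with an adjusted p from 0.0521 to 0.127. That of the middle 7 was lost without Cic-L-null replicate 2 (0.0507) or 4 (0.0794). The last 7 were not called without wild-type replicate 3 (0.0756) or Cic-L-null replicates 1 (0.0628), 2 (0.0862) or 4 (0.0927).

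Replicates varied in a way that ran through the gene. Wild-type replicate 4 was the highest wild-type array in 18 of 21 probe sets and the lowest in 1, which was the first, 10551081. Among the mutants no array led, with each of the 4 highest in 4 to 7 probe sets. Without wild-type replicate 4 the wild-type SD of the gene value was 0.089 instead of 0.28. The median difference of the 21 was then -1.16 instead of -1.32, and 18 probe sets did not overlap instead of 17. Leaving out an array cannot lower that last count. It was also 18 without wild-type replicate 2 or 3 and without Cic-L-null replicate 2 or 4.

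The genes whose values over the 8 arrays were most like those of Cic were named by Pearson r, as a description. Lrp3, a receptor of the LDL receptor family, had r = 0.99 and read 9.20, 9.21, 9.20 and 9.42 in wild-type and 8.93, 8.88, 8.95 and 8.95 in Cic-L-null. Calm3, a calmodulin gene, had r = 0.99 and a difference of -0.38 (SE 0.061). Sergef, Alkbh6, an AlkB-type dioxygenase gene, and Snord33, a small nucleolar RNA, had r = 0.97 each, with differences of -0.72 (SE 0.10), -0.40 (SE 0.070) and -1.24 (SE 0.20). In all 5 the groups did not overlap, with the mutants lower, and all 5 had their highest value in wild-type replicate 4, as Cic did. These traits follow largely from the choice, since the 5 were picked for following Cic over the same 8 arrays. Over the wild-type arrays alone, r with Cic ran from 0.81 for Sergef to 0.999 for Calm3.

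The most opposite patterns were those of Ankrd55 (r = -0.99), Tdrd12, a Tudor domain gene (r = -0.98), and Trim67, a ubiquitin ligase gene of neurons (r = -0.97). Ankrd55 read 7.13, 7.19, 7.17 and 7.05 in wild-type and 7.55, 7.56, 7.54 and 7.58 in Cic-L-null, a difference of 0.42 (SE 0.055). Of the 8 genes, 6 lie on chromosome 7, the chromosome of Cic, where 8.77% of the genes with a known place lie. Those 6 are the 5 most like Cic and Tdrd12. The 8 genes were picked from these same arrays for their r with Cic, which separates the groups. Their share of calls therefore follows in part from that choice. Of the 8, Sergef and Ankrd55 passed over all genes, each with an adjusted p of 0.0258 with limma, and 0.138% of all genes passed in either direction. Both stayed called when wild-type replicate 1 was left out, and also when replicate 3 of the mutants was, and lost the call without any other array, with adjusted p up to 0.106 for Sergef and 0.0970 for Ankrd55.

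The nearest measured genes on each side of Cic differed little, with 1 exception. Upstream, Gsk3a, a kinase of glycogen and Wnt signalling, differed by -0.099 (SE 0.079) and Erf, an ETS repressor, by -0.10 (SE 0.10). Downstream, Prr19, measured by 1 probe set below the olfactory receptor level, differed by 0.0059 (SE 0.067), a sign that turned with the scaling of arrays. Pafah1b3, a subunit gene of an acetylhydrolase of platelet-activating factor, read 8.22, 8.24, 8.33 and 8.24 in wild-type and 8.72, 8.62, 8.72 and 8.61 in Cic-L-null. It rose by 0.41 (SE 0.057, adjusted p = 0.0258 with limma) with no overlap. Its adjusted p ran from 0.0477 to 0.120 with each array left out in turn, and it stayed called without wild-type replicate 1 alone.

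The partners of Capicua and ataxin-1 were measured beside Cic, 10 of the 11 listed. None passed over all genes in limma, 2 had an unadjusted p under 0.05 where 9.26% of all genes did, and their median difference was 0.072 against -0.0071 over all genes. Atxn1 differed by 0.078 (SE 0.082) and Atxn1l by 0.020 (SE 0.061). Rora, a nuclear receptor, had the largest value of the list at 0.16 (SE 0.054).

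Of 15 genes listed from general knowledge as repressed by Capicua, all measured, 14 had a difference above 0, where 47% of all genes did. The median was 0.25. The list was compiled with that direction in mind and with earlier results of these data known. Counts over it are therefore no independent test. Called higher were 2, against 0.0884% of all genes. Dusp4, a phosphatase of MAP kinases, read 6.89, 6.40, 6.72 and 6.70 in wild-type and 7.60, 7.36, 7.53 and 7.99 in Cic-L-null and rose by 0.94 (SE 0.14, adjusted p = 0.0301 with limma). Dusp6, a phosphatase selective for ERK, rose by 0.49 (SE 0.076, adjusted p = 0.0447 with limma), from 8.20 ± 0.12 to 8.70 ± 0.093 (SD, n = 4). Vgf, a neuropeptide precursor gene, differed by 0.50 (SE 0.083, adjusted p = 0.0582 with limma). That value was 0.28 with only the probe sets above the olfactory receptor level and 0.20 with medians of probe sets, and Vgf was called with array weights (adjusted p = 0.0212), with a trended and robust variance (0.0217) and without wild-type replicate 1 (0.0477). Spry4, an inhibitor of receptor tyrosine kinase signalling, differed by 0.62 (SE 0.11, adjusted p = 0.0756 with limma). Spry4 was called with a trended and robust variance (adjusted p = 0.0197) but not with array weights (0.0541) or with medians of probe sets (0.245). With medians of probe sets neither Dusp4 (0.84, adjusted p = 0.161) nor Dusp6 (0.52, adjusted p = 0.175) was called. With each array left out in turn, Dusp4 (0.0384 to 0.120) and Dusp6 (0.0322 to 0.180) had an adjusted p under 0.05 without wild-type replicate 1 alone. From 0 to 4 members of both lists together were then called.

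As a check of the tissue, the 5 granule cell and 5 Purkinje cell markers all lay above the olfactory receptor level, and both measured forebrain markers, Neurod6 and Tbr1, lay below it. No marker of any cell type was called by limma over all genes. The mean of the 3 measured oligodendrocyte markers ran from 10.44 to 10.51 in wild-type and from 10.29 to 10.41 in Cic-L-null, with no overlap. Among them Mobp, a myelin gene, differed by -0.30 (SE 0.060, unadjusted p = 0.000502, adjusted p = 0.104 with limma), Mbp, myelin basic protein, by -0.11 (SE 0.055) and Mog by -0.0044 (SE 0.070). The mean of the 4 markers of Bergmann glia and astrocytes ran from 10.01 to 10.15 in wild-type and from 9.87 to 9.98 in Cic-L-null, and of these Gdf10 differed by -0.33 (SE 0.073, unadjusted p = 0.00109, adjusted p = 0.147 with limma). The part of these markers in the differences of Cic was not tested. The mean of the choroid plexus markers ran from 8.72 to 9.09 in wild-type and from 7.88 to 9.07 in Cic-L-null. Gene values correlated at 0.991 or more between all pairs of arrays.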

How the data were processed

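Labelled RNA from each cerebellum was hybridised to 1 array. The deposited table holds log2 values per probe set, which the authors made with RMA, per the submitters' processing notes. These also name Affymetrix Power Tools, and the sources used here give neither its version nor a build. RMA quantile normalisation sets arrays to a like distribution, with medians from 7.82 to 7.88, and compresses folds near background. Arrays give no read depth, and their number limits the precision. The platform annotation, which is old, gave 212097 probe sets 1 symbol, 4475 several and 25004 none. Of 20416 symbols, 17621 were current in GRCm38.p6 and 2742 were updated by synonym.

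Samples were grouped by title. The mean of a gene's probe sets with 1 symbol gave 20352 gene values. Gene values, probe sets, blocks of 7 by id and probe sets against their gene (diffSplice) were fitted with limma (version 3.58.1, R 4.3.3; lmFit and eBayes with group as the only term, two-sided), adjusted by Benjamini-Hochberg over each whole table. The scripts were tested on simulated data in which probe sets varied independently. That test does not cover variation that the probe sets of a gene share within an array. Differences are mutant minus wild-type values. The labels do not say whether samples of a group came from separate litters, so p-values measure the spread between these animals. Those of diffSplice, its F test included, pool this spread over a gene's probe sets as if these were independent replicates.

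Named were all Cic probe sets, Atxn1, Atxn1l and the 4 list genes with the smallest p, the 5 genes with the highest and the 3 with the lowest Pearson r with Cic, and the 2 nearest measured genes on each side. Other list members appear in counts. Rora, Mobp, Mbp, Mog, Gdf10, Col1a1 and Kl were named, and the difference of Neurod6 was given, after their values were seen. The members and lists were chosen with earlier results of these data known. Alternatives were a trended and robust variance, array weights, median centring, a dim limit (the olfactory receptor level), medians of probe sets, blocks of a split in 2, a replicate block and each array left out.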

Additional observations from a re-analysis of the deposited data

Results flagged for a closer look

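The 88 groups of 4 arrays examined were not independent. They included Cic probe sets, blocks that average them and genes picked for following Cic. Of these groups, 10 had 1 array far from the other 3 by Dixon's criterion, where chance flags about 1 in 20 of independent groups. Wild-type replicate 4 was the one in 7 of them. It read 8.47 for probe set 10551081, below the others at 8.94 to 8.99, and it was above them for 10551083 (9.76, others 8.88 to 8.96), 10551094 (9.81, others 8.87 to 8.97) and 10551101 (10.01, others all 9.28). The same array was high for the middle 7 probe sets of Cic (9.81, others 9.25 to 9.31), for Lrp3 (9.42, others 9.20 to 9.21) and for Alkbh6 (8.69, others 8.42 to 8.46). Among the mutants, replicate 3 was low for 10551081 (8.58, others 8.80 to 8.83) and replicate 2 high for 10551093 (8.91, others 8.79 to 8.80). Cic-L-null replicate 4 stood apart in the first 7 minus the last 7 probe sets of Cic, at -0.23 where the others lay from -0.76 to -0.72.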

How the results depend on the processing

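Over all alternatives, 806 of 926 recomputed values kept their direction and their side of the threshold, 68 lost a call, 24 gained one, 16 counts moved and 12 turned sign. Most of the values followed were not called in the fits reported above and so had no call to lose. The share that kept their side therefore does not measure how firm the calls were. Deviations of arrays with the same replicate number correlated at 0.10, 0.0041, 0.077 and 0.0072. Replicate 1 of both groups and Cic-L-null replicate 3 matched their own number best, and the other arrays did not. Such correlations cannot settle whether the numbers mark a shared litter or day, which the labels do not say. With the replicate block Cic differed by -1.25 (adjusted p = 0.0564) and its blocks of 7 probe sets by -1.07, -1.24 and -1.43 (adjusted p = 0.0510, 0.0627 and 0.118), none called. Counts of called Cic probe sets were 8 with a trended and robust variance. Probe sets departing from the rest of Cic numbered 3 above the dim limit and 0 by the per-array test chosen after seeing the data. Called partners and targets numbered 5 with a trended and robust variance, 4 with array weights, 1 above the dim limit, and 0 with the block or with medians. With medians of probe sets the middle 7 (-1.28, adjusted p = 0.0789) and the last 7 (-1.23, adjusted p = 0.159) were not called, and the first 7 minus the last 7 turned to -0.14.

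With each array left out, Cic differed by -1.32 to -1.11, its blocks by -1.14 to -0.95, -1.30 to -1.11 and -1.54 to -1.27, and the first 7 minus the last 7 by 0.24 to 0.42. Departing probe sets then numbered 1 (without Cic-L-null replicate 2) or 2, and called partners and targets 0 to 4. Values near 0 turned sign: Prr19 was -0.0049 with arrays centred, -0.027 with array weights and from -0.043 to 0.047 over single arrays left out. Atxn1l ran from -0.018 to 0.042 over arrays left out. Relative to the rest of Cic, 10551100 was 0.015 above the dim limit and ran from -0.13 to 0.032 over arrays left out, 10551087 from -0.022 to 0.49 and 10551096 from -0.21 to 0.065. The causes were not tested.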
